A study of Homo sapiens with 4 samples.

Results

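The genes described here are 50 genes of DNA replication and S phase, given as a list of gene symbols that holds no histone genes. They were read in Jurkat, an established line of human T-cell acute lymphoblastic leukemia, 24 h after transfection with siRNA, out of 19775 genes that the array could name. The siLEF1 cells received 100 nM of an siRNA pool against the transcription factor LEF1, and the siNT cells received 100 nM of a non-targeting siRNA pool. Each group had 2 arrays, labelled as biological replicates, and both groups shared the cell line, the medium and the transfection reagent. A single cell line and a single time point were measured, and non-transfected cells were not analysed here.

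Copying the genome starts at origins, where the origin recognition complex with CDC6 and CDT1 loads the ring-shaped MCM helicase in G1 phase. At the start of S phase CDC45 and the GINS complex join the MCM ring and turn it into the working helicase. DNA polymerases alpha, delta and epsilon then copy both strands, and delta and epsilon work with the sliding clamp PCNA. Many of these genes are transcribed in late G1 and S phase under E2F factors, which are freed when the RB protein is phosphorylated. An array of bulk RNA cannot tell fewer cells in S phase from less RNA per cell.

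The promoters were searched for the letters of 3 motifs, to show what these genes share in sequence. RefSeq promoters of build GRCh38.p14, from 250 bases before to 50 bases after the start of the gene, were matched by symbol for 43 of the 50 genes. An E2F-type motif, spelled TTTCCCGC, TTTCGCGC, TTTGCCGC or TTTGGCGC and searched on both strands, lay in 23 of the 43 windows (53.5%), against 908 of 27305 promoters of the same length (3.33%). The box CCAAT, also on both strands, lay in 27 of the 43 (62.8%), against 35.7% of all promoters. The letters CTTTGAT, as bound by LEF1 and its relatives, lay in 1 of the 43 (2.33%), that of TIMELESS, against 2.64% of all promoters. In 1 of the 43 windows matches to different motifs overlapped. MCM6 held 4 matches to the E2F-type motif, and MCM2, MCM3, MCM7 and HELLS held 2 each. A match is a run of letters and not a bound site.

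The bases directly before the start are shown for the 4 genes with the smallest p of the siLEF1 comparison whose match lay before the start, each as 150 bases read 5′ to 3′ on the strand of the gene with the E2F-type motif in capitals. The match of POLE2, the gene with the smallest p, lay after the start. The windows are chr12:132687343-132687492 on the minus strand for POLE, chr19:48170345-48170494 on the minus strand for LIG1, chr16:85688955-85689104 on the minus strand for GINS2 and chr19:4909351-4909500 on the plus strand for UHRF1. 
POLE: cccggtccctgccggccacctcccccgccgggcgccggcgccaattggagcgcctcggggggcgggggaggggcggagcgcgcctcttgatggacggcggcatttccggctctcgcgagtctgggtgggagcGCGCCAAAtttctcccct
LIG1: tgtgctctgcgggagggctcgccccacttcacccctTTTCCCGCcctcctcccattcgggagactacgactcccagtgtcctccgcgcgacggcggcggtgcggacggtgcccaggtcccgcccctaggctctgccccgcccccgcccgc
GINS2: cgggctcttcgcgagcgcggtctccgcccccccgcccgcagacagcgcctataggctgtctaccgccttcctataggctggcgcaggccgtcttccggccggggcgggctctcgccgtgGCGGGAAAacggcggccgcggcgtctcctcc
UHRF1: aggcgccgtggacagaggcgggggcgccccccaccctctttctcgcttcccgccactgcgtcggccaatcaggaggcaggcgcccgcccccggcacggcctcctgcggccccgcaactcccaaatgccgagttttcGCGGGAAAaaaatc
In POLE, GINS2 and UHRF1 the motif stood within 31 bases of the start and was read on the opposite strand, and in LIG1 it began 114 bases before the start.

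RNA was hybridized to Affymetrix HG-U133 Plus 2.0 arrays, and the authors normalized the signals by RMA, so every value is a log2 signal of a probe set, a group of short probes against one transcript. Each gene stands here by its brightest probe set annotated to that gene alone. All 50 genes lay above the median of each array (4.84 to 4.85). All 8 T-cell markers looked up lay above the array medians too, while of the other lineages 2 of 4 B-cell, 1 of 5 myeloid, 2 of 2 erythroid and 3 of 6 epithelial or stromal markers did in every array. LEF1 itself had 11.24 and 11.56 in the siLEF1 arrays, against 12.30 and 11.92 in the siNT arrays in its brightest probe set, a log2 difference of -0.71 (adjusted p = 0.191 from limma). A dimmer LEF1 probe set had 6.88 and 7.24 in the siLEF1 arrays, against 8.20 and 7.78 in the siNT arrays, a log2 difference of -0.93. The dimmest had -0.19, with signals of 4.48 to 4.89, near the array medians. None of the 3 passed the threshold.

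None of the 50 genes passed. A call needed a fold change over 2 together with a limma p, after adjustment, under 0.05. The model was fitted over all 54613 probe sets. By this rule 0 of the 50 genes were higher in siLEF1 cells (background 0.0657% of all genes) and 0 were lower (background 0.263%). With the fold threshold dropped, 0 passed in either direction (background 0.329%). The smallest adjusted p was 0.213, for POLE2, and the largest fold change was 1.84, for HELLS. What the 50 genes showed was a small difference with the same sign in most of them. The log2 difference siLEF1 minus siNT was above 0 in 43 genes and below 0 in 7, with a median of 0.32 and a range of -0.24 to 0.88. Over all genes the median was 0.02 and 53.5% were above 0, and over the 10324 genes with a mean signal of 6 or more the median was -0.0012. At an unadjusted p under 0.05 there were 14 genes above 0 (background 7% of all genes) and 0 below (background 11.5%). Both siLEF1 arrays lay above both siNT arrays in 33 genes (background 28.1%) and below both in 3 genes (background 26.4%), and the groups overlapped in 14.

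**Figure D1:**
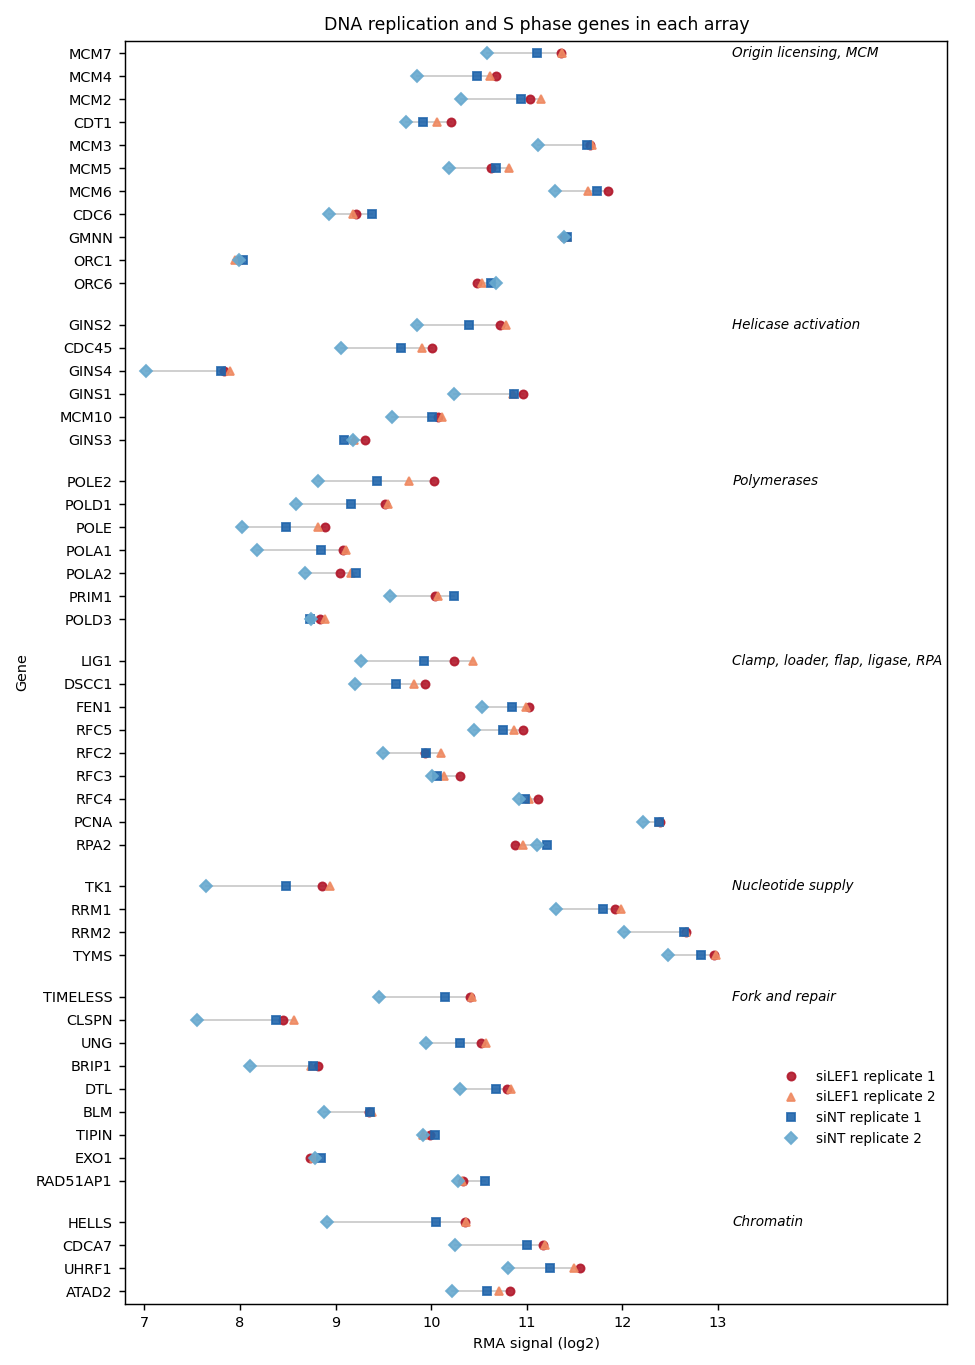
Log2 RMA signal, along the horizontal axis, of the 50 genes (rows, grouped by role), in each of the 4 arrays, where red circles and orange triangles are siLEF1 replicates 1 and 2 and dark blue squares and light blue diamonds are siNT replicates 1 and 2. The grey line of each row spans its 4 signals, and siNT replicate 2 is the lowest of the 4 arrays in 44 rows.

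Of the 4 arrays siNT replicate 2 was the lowest in 44 of the 50 genes (88%). It was the lowest in 34.7% of all genes and in 43.9% of genes with a mean signal of 6 or more. The siLEF1 replicates were close to each other, with a median absolute difference of 0.06 over the 50 genes and a largest one of 0.27. The siNT replicates were further apart, with a median absolute difference of 0.45. Over all genes these medians were 0.12 for siLEF1 and 0.21 for siNT. Over genes with a mean signal of 6 or more they were 0.09 and 0.24. The siNT gap was larger than the siLEF1 gap in 90% of the 50 genes. The same held in 63.9% of all genes and in 75.4% of genes with a mean signal of 6 or more. Replicate 2 of siNT lay below siNT replicate 1 in 47 of the 50 genes (median difference -0.45). Over all genes that share was 51.0% and the median was -0.01, and over genes with a mean signal of 6 or more they were 59.3% and -0.08. Measures of RNA integrity differed between the arrays too. The 5′ minus 3′ log2 signal of ACTB was -1.08 and -1.55 in the siLEF1 arrays, against -1.80 and -1.95 in the siNT arrays. Its wider gap lay between the siLEF1 arrays. For GAPDH this signal was -0.34 and -0.32 in the siLEF1 arrays, against -0.39 and -0.65 in the siNT arrays. There the wider gap lay between the siNT arrays. The log2 of the summed T-cell marker signal was 14.11 and 14.12 in the siLEF1 arrays, against 14.11 and 13.78 in the siNT arrays. In these 3 measures siNT replicate 2 had the lowest value. For the erythroid markers the sum was 7.14 and 7.06 in the siLEF1 arrays, against 7.78 and 7.40 in the siNT arrays. The sums of the B-cell, myeloid and epithelial or stromal markers were highest in siNT replicate 2 among the 4 arrays. They were 7.36, 7.17 and 9.34 in that array. The part of these measures in the difference between the groups was not tested.

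Genes of origin licensing and of the MCM ring had a median log2 difference of 0.29 over 11 genes, 8 of them above 0. MCM7, an MCM subunit, had 11.36 and 11.37 in the siLEF1 arrays, against 11.10 and 10.58 in the siNT arrays, a log2 difference of 0.52 (adjusted p = 0.301 from limma). The groups did not overlap there, but the gap of 0.52 between the siNT arrays was as large as the difference. MCM4 had 10.68 and 10.61 in the siLEF1 arrays, against 10.47 and 9.85 in the siNT arrays, and MCM2, which binds histones as well as its ring partners, differed by 0.47. MCM6 had 11.85 and 11.64 in the siLEF1 arrays, against 11.73 and 11.29 in the siNT arrays, so that siNT replicate 1 lay between the siLEF1 arrays. MCM3 and MCM5 had log2 differences of 0.30 and 0.29, which puts all 6 ring subunits above 0, from 0.24 to 0.52.

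Of the factors that work before the ring is loaded, CDT1, which brings the MCM ring to origins, had both siLEF1 arrays above both siNT arrays and a log2 difference of 0.31. Its inhibitor GMNN had one of -0.0017, with overlapping groups and a 95% confidence interval of -0.35 to 0.35. CDC6 had 9.21 and 9.18 in the siLEF1 arrays, against 9.38 and 8.94 in the siNT arrays, with both siLEF1 arrays between the siNT arrays. The origin recognition complex subunits ORC1 and ORC6 had log2 differences of -0.04 and -0.14. The siNT replicates were within 0.05 of each other in GMNN, ORC1 and ORC6, which are thus among the few genes of the list where siNT replicate 2 did not stand apart.

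Genes that turn the loaded ring into a helicase were all above 0, with a median log2 difference of 0.40 over 6 genes. GINS2, a GINS subunit, had 10.72 and 10.78 in the siLEF1 arrays, against 10.39 and 9.85 in the siNT arrays, a log2 difference of 0.63 (95% confidence interval 0.12 to 1.13, adjusted p = 0.243 from limma). CDC45 had 10.01 and 9.90 in the siLEF1 arrays, against 9.69 and 9.06 in the siNT arrays, a log2 difference of 0.58. In both genes each siLEF1 array was above each siNT array. GINS1 had 10.96 and 10.86 in the siLEF1 arrays, against 10.87 and 10.24 in the siNT arrays, where siNT replicate 1 lay within the siLEF1 range. GINS4 had 7.83 and 7.90 in the siLEF1 arrays, against 7.80 and 7.01 in the siNT arrays. In this brightest probe set it differed from siNT replicate 1 by 0.06 and from siNT replicate 2 by 0.85. A dimmer GINS4 probe set had 6.63 and 6.68 in the siLEF1 arrays, against 6.16 and 5.79 in the siNT arrays. Its log2 difference was 0.68, and the dimmest ones had 0.02 and 0.03. GINS3 was the exception of the complex, since siNT replicate 2 was the higher of its siNT arrays, and its log2 difference was 0.11. MCM10, which helps to fire the helicase, had one of 0.29.

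The 7 DNA polymerase genes all had values above 0. In 5 of them both siLEF1 arrays lay above both siNT arrays (background 28.1% of all genes). POLE2, a subunit of polymerase epsilon, had 10.03 and 9.76 in the siLEF1 arrays, against 9.43 and 8.82 in the siNT arrays, a log2 difference of 0.77 (95% confidence interval 0.20 to 1.35, adjusted p = 0.213 from limma). POLE, its catalytic subunit, had 8.89 and 8.81 in the siLEF1 arrays, against 8.48 and 8.02 in the siNT arrays, a log2 difference of 0.60. POLD1, the catalytic subunit of polymerase delta, had 9.51 and 9.54 in the siLEF1 arrays, against 9.16 and 8.58 in the siNT arrays, a log2 difference of 0.65. In these 3 genes the siLEF1 arrays were clear of the siNT arrays. POLA1, the catalytic subunit of polymerase alpha, had 9.07 and 9.11 in the siLEF1 arrays, against 8.85 and 8.18 in the siNT arrays. PRIM1, the primase that starts each new strand, had 10.04 and 10.07 in the siLEF1 arrays, against 10.24 and 9.57 in the siNT arrays, so its siLEF1 arrays lay between the siNT arrays. POLA2 overlapped as well, with a log2 difference of 0.15, and POLD3, whose siNT arrays were 0.01 apart, had one of 0.13. Over the 7 genes the median was 0.58.

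In the group of the clamp, its loaders and the enzymes that finish the lagging strand, LIG1 stood at the top and the clamp itself near 0. LIG1, the ligase that seals Okazaki fragments, had 10.23 and 10.44 in the siLEF1 arrays, against 9.92 and 9.26 in the siNT arrays, a log2 difference of 0.74 (standard error 0.24, adjusted p = 0.232 from limma). DSCC1, part of an alternative clamp loader, had 9.94 and 9.82 in the siLEF1 arrays, against 9.63 and 9.20 in the siNT arrays. PCNA had 12.39 and 12.38 in the siLEF1 arrays, against 12.39 and 12.21 in the siNT arrays, a log2 difference of 0.09 (95% confidence interval -0.28 to 0.45). The PCNA signal of siNT replicate 1 thus lay inside the narrow siLEF1 range. FEN1, the flap endonuclease, had a log2 difference of 0.32, and the clamp loader subunits RFC2, RFC3, RFC4 and RFC5 had values of 0.12 to 0.31. RPA2, a subunit of the single-strand binding protein, had the lowest log2 difference of the 50 genes, -0.24, and its siLEF1 arrays were the lower pair (adjusted p = 0.503 from limma).

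All 4 genes of nucleotide supply had both siLEF1 arrays above both siNT arrays (background 28.1% of all genes). TK1, the thymidine salvage kinase, had 8.86 and 8.94 in the siLEF1 arrays, against 8.48 and 7.65 in the siNT arrays, a log2 difference of 0.84 (standard error 0.28, adjusted p = 0.236 from limma). TYMS, which makes thymidylate, had 12.96 and 12.98 in the siLEF1 arrays, against 12.82 and 12.48 in the siNT arrays, a log2 difference of 0.32. The ribonucleotide reductase subunits RRM1 and RRM2 had log2 differences of 0.40 and 0.34 in their brightest probe sets. Of these 0.16 and 0.03 remained against siNT replicate 1 alone. In a second RRM2 probe set both siLEF1 arrays, at 12.59 and 12.42, lay above siNT replicate 1 at 11.97 and siNT replicate 2 at 11.39.

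Genes that guard and repair forks were mixed, with 6 of 9 above 0. TIMELESS, a fork protection factor, had 10.40 and 10.42 in the siLEF1 arrays, against 10.14 and 9.45 in the siNT arrays, a log2 difference of 0.62 (adjusted p = 0.299 from limma). Its partner TIPIN had a log2 difference of -0.02 (95% confidence interval -0.38 to 0.34). CLSPN, the adaptor that passes the stalled-fork signal to CHEK1, had 8.45 and 8.56 in the siLEF1 arrays, against 8.38 and 7.55 in the siNT arrays. Its log2 difference was 0.12 against siNT replicate 1 alone and 0.96 against siNT replicate 2 alone. UNG, which removes uracil from DNA, had 10.52 and 10.58 in the siLEF1 arrays, against 10.30 and 9.94 in the siNT arrays. DTL, part of the ligase that degrades CDT1 in S phase, had 10.79 and 10.83 in the siLEF1 arrays, against 10.68 and 10.30 in the siNT arrays. The helicase genes BLM and BRIP1 had log2 differences of 0.24 and 0.35 with overlapping groups. RAD51AP1, a homologous recombination factor, had one of -0.10 and the nuclease gene EXO1 one of -0.06.

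All 4 chromatin genes had both siLEF1 arrays above both siNT arrays (background 28.1% of all genes), and their median log2 difference was 0.53. HELLS, a chromatin remodeler, had 10.35 and 10.36 in the siLEF1 arrays, against 10.05 and 8.91 in the siNT arrays, the largest log2 difference of the list at 0.88 (standard error 0.35, adjusted p = 0.305 from limma) and also the largest gap between the siNT arrays, 1.14. CDCA7, a partner of HELLS, had 11.17 and 11.19 in the siLEF1 arrays, against 10.999 and 10.25 in the siNT arrays. UHRF1, which reads hemimethylated DNA behind the fork, had 11.56 and 11.49 in the siLEF1 arrays, against 11.24 and 10.80 in the siNT arrays, a log2 difference of 0.50. ATAD2, a bromodomain protein gene, had a log2 difference of 0.36.

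Because the siNT arrays differed this much, the siLEF1 arrays were set against each of them alone. Against siNT replicate 1 the median log2 difference of the 50 genes was 0.14, with a range of -0.29 to 0.46 and 39 genes above 0, beside a median of 0.02 over all genes. TK1 was the 1 gene above 0 at an unadjusted p under 0.05 (background 3.81% of all genes), with a log2 difference of 0.42 (adjusted p = 0.422 from limma), and 0 genes passed the adjusted threshold (background 0% of all genes). POLE2, TK1 and LIG1 had the largest values against this array, 0.46, 0.42 and 0.41. PRIM1, CDC6 and POLA2, above 0 against both arrays together, had values of -0.18, -0.19 and -0.11 here, and PCNA had -0.0019.

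Against siNT replicate 2 the median was 0.54, with 46 genes above 0, and 35 genes were above 0 at an unadjusted p under 0.05 (background 13.6%). In this comparison 2 of the 50 genes passed both thresholds (background 1.07%), HELLS with a log2 difference of 1.45 (adjusted p = 0.0408 from limma) and TK1 with 1.25 (adjusted p = 0.0439 from limma). Each of these fits takes the lone siNT array to vary like the siLEF1 pair, and the 2 comparisons share the same siLEF1 arrays. The size of the difference in the 50 genes depended on which siNT array was used.

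**Figure D2:**
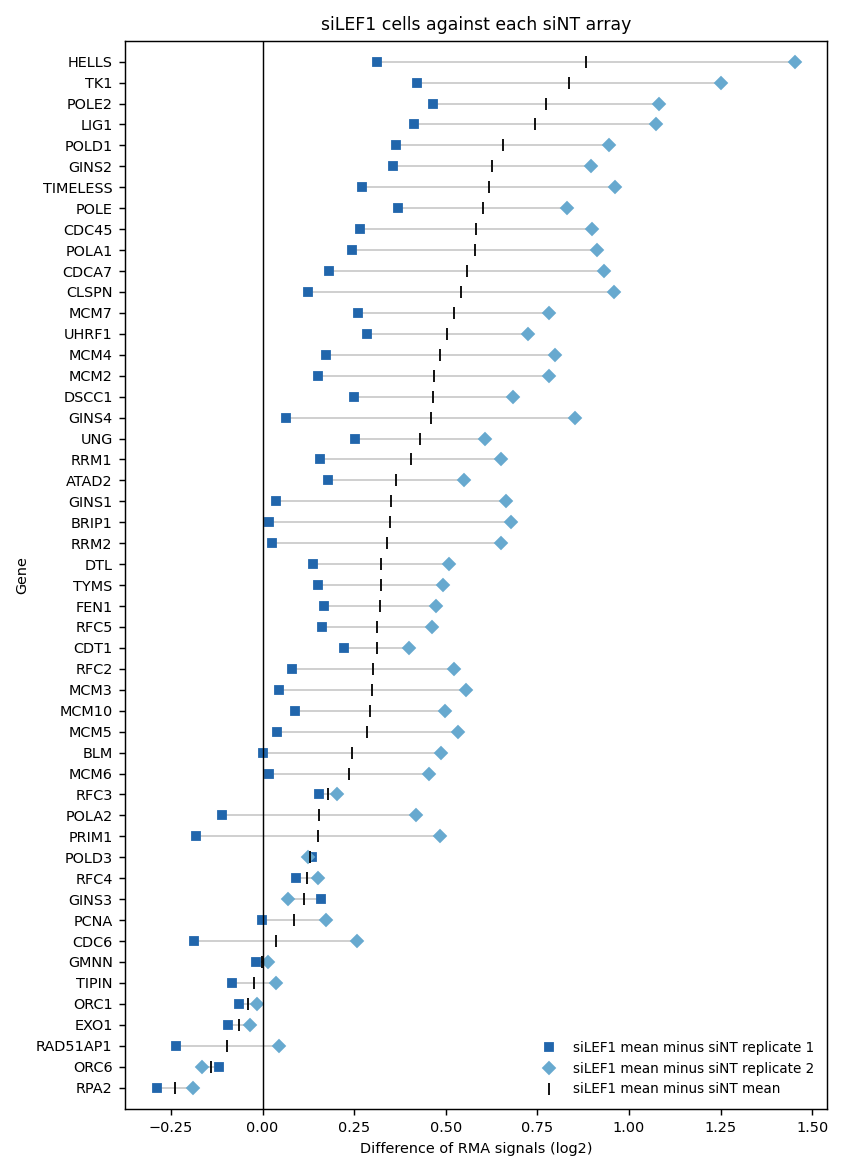
Mean log2 signal of the siLEF1 arrays minus siNT replicate 1 (dark blue squares), minus siNT replicate 2 (light blue diamonds) and minus the mean of both (black ticks), for each of the 50 genes (rows), ordered by the last. The squares lie between -0.29 and 0.46 and the diamonds between -0.19 and 1.45.

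**Figure D3:**
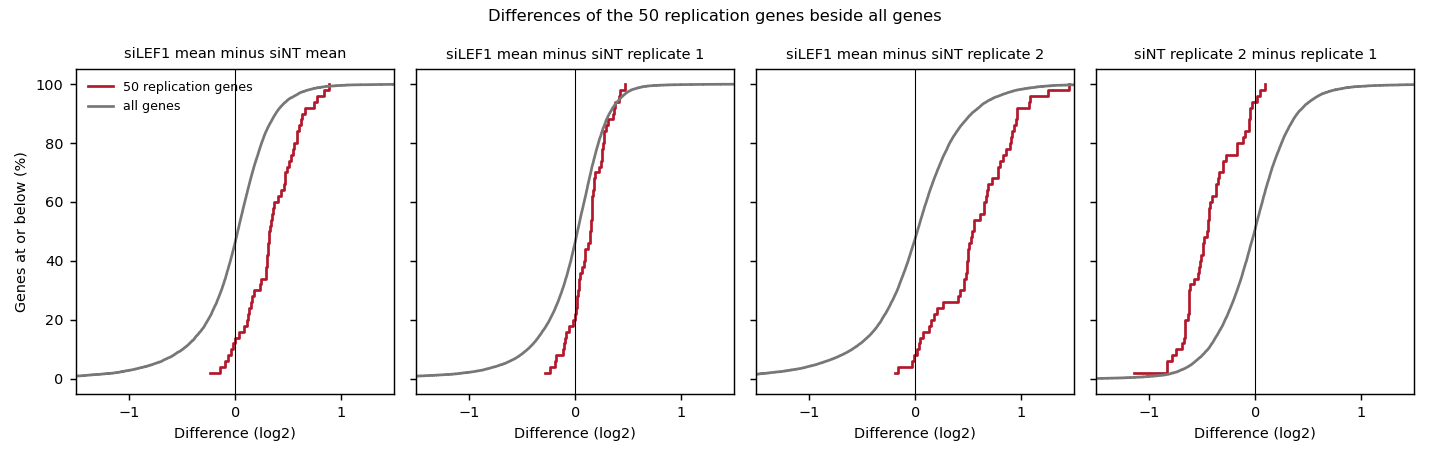
Share of genes (vertical axis, percent) at or below a log2 difference (horizontal axis, drawn from -1.5 to 1.5) for the 50 replication genes (red) and all 19775 genes (grey), in 4 comparisons. The red curve has its median at 0.32, 0.14 and 0.54 in the siLEF1 comparisons and at -0.45 between the siNT arrays, where the median of all genes is -0.01.

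The other probe sets of the same genes were mostly above 0 too, but for several genes they differed in size or sign from the brightest one. Of the 50 genes 28 had more than 1 probe set, which added 46, and 42 of these had a log2 difference above 0, though 0 of the 96 passed (background 0.0238% of all probe sets called higher and 0.183% lower) and the smallest adjusted p was 0.142. That value belonged to a dimmer HELLS probe set with a log2 difference of 1.70. It had 5.98 and 6.62 in the siLEF1 arrays, against 5.17 and 4.04 in the siNT arrays. Another HELLS probe set, with signals of 5.67 to 6.31, had -0.50, so the probe sets of HELLS disagreed in sign. The remaining HELLS probe sets had 0.88, 0.42 and 1.43. A second RRM2 probe set had 12.59 and 12.42 in the siLEF1 arrays, against 11.97 and 11.39 in the siNT arrays, a log2 difference of 0.82 against 0.34 in the brightest one. The TYMS probe set of middle brightness had 0.64, and a dim one, with signals of 5.10 to 5.53, had -0.22. The second probe sets of DTL and POLD3 were also below 0, at -0.06 and -0.04, where the brightest had 0.32 and 0.13. GINS2 had 0.07 and 0.14 in its dimmer probe sets against 0.63 in the brightest, and DSCC1 had 0.09 against 0.47. Those of CDCA7 differed the other way, with 1.44 in the dimmer one and 0.56 in the brightest. With probe sets ending in _s_at or _x_at left out, GINS2, DSCC1 and CDCA7 were read from dimmer probe sets, at 0.07, 0.09 and 1.44. As the mean of all probe sets of the gene the log2 difference was 0.28 for GINS2, 0.28 for DSCC1, 0.13 for DTL, 0.33 for CLSPN, 0.30 for GINS4, 0.39 for MCM6 and 0.998 for CDCA7, each over 1.5 times from the value of the brightest probe set. Among the 37 added probe sets above the median of all 4 arrays, 33 were above 0, with a median of 0.38.

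The genes around these 50 were read from 4 further lists. Other replisome genes had a median log2 difference of 0.16 over 37 genes, 25 of them above 0, and 0 passed in either direction. In this list ORC5 and ORC4, further subunits of the origin recognition complex, had log2 differences of -0.89 and -0.70, POLD4, the smallest subunit of polymerase delta, one of -0.59 and POLD2, another subunit of that enzyme, one of 0.68. The ORC5 signals were 9.45 and 9.52 in the siLEF1 arrays, against 10.16 and 10.59 in the siNT arrays (adjusted p = 0.125 from limma), the opposite order to most replication genes, and ORC4 had 9.91 and 9.75 in the siLEF1 arrays, against 10.30 and 10.76 in the siNT arrays. The remaining subunits of the complex were mixed, since ORC2 had a log2 difference of -0.21 and ORC3 one of 0.41, both named after their values were seen.

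Genes of nucleotide synthesis were mostly above 0, with 22 of 24 on that side and a median log2 difference of 0.22. CTPS1, which makes CTP, had 10.53 and 10.48 in the siLEF1 arrays, against 10.02 and 9.37 in the siNT arrays, a log2 difference of 0.81 (adjusted p = 0.195 from limma). NME1, a nucleoside diphosphate kinase, had 0.55, the nucleoside transporter gene SLC29A1 0.75 and the purine synthesis gene PAICS 0.73, and 0 genes passed.

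In E2F and G1/S control the median log2 difference was 0.29 over 30 genes, 25 of them above 0, and 0 passed in either direction. SKP2, which marks the CDK inhibitor p27 for degradation, had 11.14 and 11.06 in the siLEF1 arrays, against 10.47 and 10.09 in the siNT arrays, a log2 difference of 0.82 (adjusted p = 0.135 from limma). CDKN1B, which encodes p27, had 10.60 and 10.39 in the siLEF1 arrays, against 11.02 and 11.68 in the siNT arrays, a log2 difference of -0.86 (adjusted p = 0.191 from limma). MYBL2, an E2F target that drives later cell cycle genes, had a log2 difference of 0.86, and the CDK inhibitor gene CDKN1A one of -0.56. These 4 genes were named for the smallest p in the list, so clear groups in them follow from the choice. Over the 30 genes both siLEF1 arrays lay above both siNT arrays in 19 (background 28.1% of all genes). They lay below both in 5 (background 26.4%), and the groups overlapped in 6. Against siNT replicate 1 alone SKP2 had 0.62, MYBL2 0.52, CDKN1A -0.46 and CDKN1B -0.52.

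The replication checkpoint list had a median log2 difference of -0.04 over 16 genes, with 7 above 0 and 0 passing. TONSL, which acts at stalled forks, had a log2 difference of 0.67, FANCI, of the Fanconi anemia pathway, 0.62, and the checkpoint kinase gene CHEK2 0.46, while PALB2, a partner of BRCA2, had -0.47. Against siNT replicate 2 alone CTPS1, SLC29A1 and MYBL2 passed above 0 (background 1.07%), and ORC5 passed below 0 (background 2.89%).

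**Figure D4:**
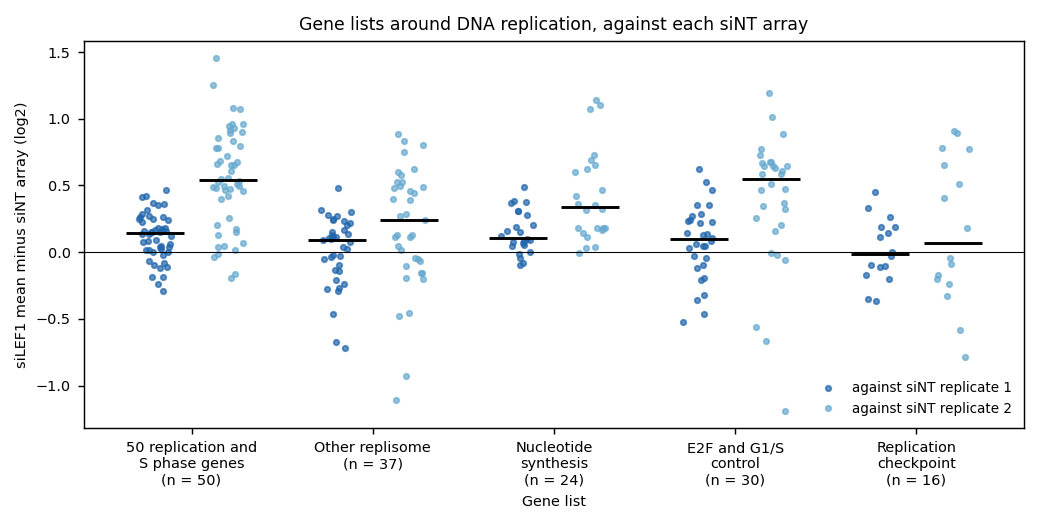
Mean log2 signal of the siLEF1 arrays minus siNT replicate 1 (dark blue) or minus siNT replicate 2 (light blue), on the vertical axis, for each gene (points) of the 50 replication and S phase genes and 4 further lists, with medians as black bars. Medians against siNT replicate 2 lie above those against replicate 1 in each list, at 0.54 and 0.14 in the 50 genes.

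The values were also split by whether the promoter held the E2F-type motif, as a description. The 23 genes with a match had a median log2 difference of 0.35, from -0.06 to 0.88, and the 20 without had one of 0.31, from -0.14 to 0.84. Between the siNT arrays the medians were -0.51 with and -0.43 without a match.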

How the data were processed

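The authors normalized HG-U133 Plus 2.0 arrays by RMA, and the submitters' processing notes name Affymetrix Expression Console 1.1. The deposited values are log2 signals, 1 per probe set and array, with no filter, and whether arrays of non-transfected cells entered the same RMA run is not stated. No further normalization was applied. After 62 control probe sets were left out, siLEF1 minus siNT was tested with limma 3.58.1 in R 4.3.3 (lmFit, eBayes, 2-sided) over 54613 probe sets with Benjamini-Hochberg adjustment. The study's methods used limma on 3 groups, of which 2 were compared here. The fit had 2 residual degrees of freedom plus 4.30 from the other probe sets, and was tested on simulated data. Of the probe sets 41091 had 1 gene symbol, 1801 several and 11721 none, from the platform annotation updated by Entrez number. The array number limits precision. Each p-value sets a difference against the spread between these arrays, moderated by the spread in the other probe sets.

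Members and lists were chosen with earlier results of these data known. Values in every array were given for the 16 members with the smallest p, the 4 with the largest siNT difference and the brightest of each role, 24 genes in all, and up to 4 genes with the smallest p were named in each further list, beside other members in brief. Some genes of these lists were not analysed here. Alternatives were each array left out, the replicate number as a block, a signal filter, other moderation, centring on array medians or 13 housekeeping genes, other probe set choices and other fold thresholds.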

Additional observations from a re-analysis of the deposited data

How the results depend on the processing

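With 2 arrays per group, 0 of the 50 genes were called lower in each alternative run, and 0 were called higher in each but 1. Leaving out each array in turn gave 0 to 2 genes called higher, 4 to 11 genes below 0 and a median log2 difference of 0.14 to 0.54, with both ends set by which siNT array was left out. Without siNT replicate 2, PCNA and PRIM1 had log2 differences of -0.0019 and -0.18, and without siNT replicate 1 they had 0.17 and 0.48. Without siNT replicate 1, HELLS and TK1 passed at 1.45 and 1.25. The same-numbered arrays did not deviate together (correlation -0.15 over probe sets, which are not independent). The labels do not say whether the numbers pair arrays, and this correlation cannot decide it. With the replicate number as a block the median stayed at 0.32 and 0 genes were called (smallest adjusted p 0.109), while calls over all probe sets were 120 higher and 977 lower, where the fit without it gave 13 and 100. With the numbers crossed, chosen after seeing the data, 0 of the 50 and 159 higher and 763 lower probe sets were called. Over all probe sets the calls were 0 and 0 without siNT replicate 2 or without either siLEF1 replicate, 595 and 1287 without siNT replicate 1, 1 and 4 with the filter at a signal of 6, 0 and 0 without moderation and 53 and 364 with centring on housekeeping genes, and over genes 25 and 172 with the mean of all probe sets. Without probe sets ending in _x_at or _s_at, 39 of the 50 genes could be read, and GINS2, DSCC1 and CDCA7 had 0.07, 0.09 and 1.44. In that run 5 of the 39 were below 0 and the median log2 difference was 0.31. In all other alternatives 0 of the 50 genes were called, 7 were below 0 and the median was 0.29 to 0.32.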
